A study of Mus musculus with 51 samples.

Results

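Of the 51 libraries in the series, 7 came from the Uba1 overexpression experiment in Myc-CaP tumors, and these were chosen by their titles alone. They are described here for keratins and epithelial state, cell cycle, MHC class II and the myeloid compartment, with the interferon genes beside them. Myc-CaP is a prostate cancer line from a Myc-driven FVB mouse tumor. Its cells had been transduced with a lentiviral vector carrying Uba1 cDNA under a CMV promoter (OE, 4 tumors, T1 to T4) or with the empty vector (EV, 3 tumors, T1 to T3). Both pools had been selected with blasticidin and grown under the skin of both flanks of male FVB mice, which are syngeneic and immunocompetent. Neither group received a drug, and every tumor was labelled prostate tumor, with epithelial as the cell type and wild type or Uba1-overexpression as the genotype. Because the flanks of a mouse could each give a tumor, some tumors may share a host, and the p-values measure only the spread between these 7 tumors. The lentiviral pool drives Uba1 in the cancer cells, whereas the RNA was taken from whole tumors, so host cells could contribute to every library.

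Uba1 is the main E1 enzyme of the ubiquitin system: it charges ubiquitin and hands it to the E2 enzymes, from which E3 ligases pass it to substrates, many of them then degraded by the proteasome. Interferons from lymphocytes and infected cells act through JAK kinases and STAT factors, and IFN-γ in particular raises the transcription of antigen presentation genes, including the MHC class II machinery through Ciita. Keratins are the intermediate filament proteins of epithelial cells and are switched on in sets that follow the type and layer of the epithelium.

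Total counts ran from 8652097 to 9138696 in EV and from 9232375 to 12569942 in OE tumors, so that the groups did not overlap in depth, and mitochondrial genes took 2.002% to 2.511% of counts. OE T1 stood apart: it lay at 80.8 on the first principal component (57.0% of the variance), against 16.5, −3.73 and −6.52 in the other OE tumors and −32.2 to −25.1 in EV tumors. This tumor had the highest value of the 7 in 31.6% of genes tested and the lowest in 30.0%. Genes of the skeletal muscle list summed to 1654 CPM (counts scaled to the size of the library) in OE T1 and 420.3 in OE T2. They summed to 42.4 to 53.4 in the other 5 tumors. In those 5, Tnni2 alone gave 26.0 to 33.9 CPM, and cultured Myc-CaP cells also expressed that gene. Because OE T1 stood apart, results are given with and without it, a choice made after these values were seen. Of 14853 genes tested by edgeR's quasi-likelihood test, 2698 (18.2%) had an unadjusted p under 0.05, 1488 of them (10%) higher and 1210 (8.15%) lower in OE tumors. Those shares are the background for the counts of genes in each list below. Every OE tumor lay above every EV tumor for 1582 genes (10.7%) and below for 1499 (10.1%). The higher genes made up 55.2% of those at an unadjusted p under 0.05, but 37.5% when log2(TPM + 1) was tested in place of counts, where TPM is a level corrected for gene length as well as depth. At a Benjamini-Hochberg adjusted p under 0.05, 4 genes changed (0.0269% of those tested): Uba1, Krt19 and Krt78 rose (0.0202%) and Cd74 fell (0.00673%). With 1 tumor left out, 386 genes passed without OE T1 and 0 to 153 without any other tumor. Adjusted calls quoted below without OE T1 thus come from the most permissive of these fits.

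Uba1 itself rose in all OE tumors. Its level was 310.4, 278 and 292 CPM in the EV tumors T1 to T3 and 731, 631, 722 and 747 CPM in the OE tumors T1 to T4, which is 2.41-fold higher (log2 fold change 1.27, SE 0.09, unadjusted p = 3.39e-07, adjusted p = 0.00503). The groups were far apart and each was tight, though the adjusted p of Uba1 was 0.116 without EV T2 and 0.110 without EV T3. Reads from the cDNA and from the gene on chromosome X (GRCm38, chrX:20658326-20683179) cannot be told apart in these counts. Its Y-linked copy, Uba1y, stood at 1.96 CPM in EV and 2.04 in OE tumors. Of the 11 E1 enzymes tested, Uba1 was the only one at an unadjusted p under 0.05 in either direction. Uba6, the other E1 that charges ubiquitin, was at 55.5 ± 2.20 CPM (SD, n = 3) in EV and 62.8 ± 6.88 CPM (SD, n = 4) in OE tumors. Uba7, the E1 of the ubiquitin-like interferon product Isg15, was at 11.5, 11.4 and 14.7 against 2.87, 5.75, 14.3 and 7.92 CPM, with overlapping groups. Downstream, 2 of 32 E2 enzymes were higher and 1 lower at an unadjusted p under 0.05, and 0 of 32 proteasome subunits were in either direction (medians of 0.10 and 0.03 on the log2 scale, against 0.00 over all genes tested). Of the 4 genes that encode ubiquitin, Rps27a, which also encodes a ribosomal protein, had a log2 fold change of 0.27 (unadjusted p = 0.0185, adjusted p = 0.197).

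Several keratins were higher in OE than in EV tumors. Of the 26 keratin genes on the lists that the table holds, 10 were expressed enough to be tested. Krt19 and Krt78 rose past the adjusted threshold, and 7 of the 10 were higher and 0 lower at an unadjusted p under 0.05. The median log2 fold change of the 10 was 2.02. In 4 unstimulated cultured Myc-CaP libraries, each of these 7 was above its highest EV level in TPM. Krt19 was at 131 to 526 TPM there and 23.3 to 39.9 TPM in EV tumors. Krt78 was at 74.1 to 106 and 13.5 to 24.4 TPM, and Krt4 at 574 to 681 and 34.1 to 56.2 TPM. Krt7, Krt8 and Krt80 were lower in culture than in any EV tumor. The source of the higher keratin values was not tested. Krt19, a keratin of simple epithelia and of progenitor cells in many glands, was at 20.99, 33.8 and 35.3 CPM in EV and 138, 138, 158 and 103 CPM in OE tumors (4.47-fold, log2 fold change 2.16, SE 0.21, unadjusted p = 5.59e-06, adjusted p = 0.0415). Krt78, a keratin of the upper layers of stratified epithelia, was at 41.9, 52.6 and 28.6 against 277, 268, 311 and 156 CPM (6.17-fold, log2 fold change 2.63, SE 0.29, unadjusted p = 1.14e-05, adjusted p = 0.0425). For both genes the lowest OE tumor was T4, and it still stood over every EV tumor. The other keratins of suprabasal layers tested were also higher, without passing the adjusted threshold. Krt4, which pairs with Krt13 in the mouth and esophagus, was at 53.02, 71.8 and 42.8 against 286, 188, 213 and 135 CPM (log2 fold change 1.88, SE 0.27, unadjusted p = 1.00e-04, adjusted p = 0.116). Krt79, a keratin of hair follicle and sebaceous duct, was at 0.984, 1.36 and 1.27 against 5.65, 7.70, 6.68 and 4.39 CPM (log2 fold change 2.33, SE 0.27, unadjusted p = 2.02e-05, adjusted p = 0.0599). Krt4 and Krt79 did not overlap between the groups, whereas OE T4 and EV T2 overlapped for Krt13, at 0.547, 2.72 and 0.317 against 32.3, 7.02, 3.99 and 2.68 CPM (log2 fold change 3.27, unadjusted p = 0.016, adjusted p = 0.188).

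**Figure D1:**
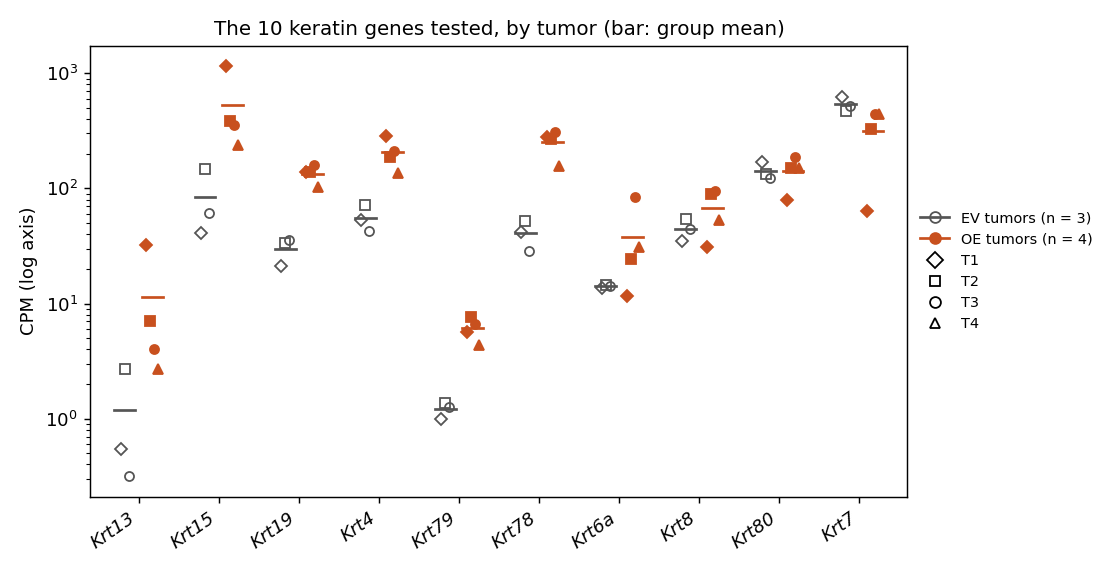
Level of the 10 keratin genes tested, in CPM on a log axis, in each EV tumor (open symbols, n = 3) and OE tumor (filled symbols, n = 4), with symbol shape giving the tumor number and a bar at the group mean. Krt15, Krt19, Krt4, Krt79 and Krt78 lie higher in all 4 OE tumors than in all 3 EV tumors, while Krt7 lies lower in all 4, most of all in OE T1 at 63.6 CPM.

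Krt15, a basal-layer and stem-cell keratin, was at 40.996, 149 and 60.5 CPM in EV and 1146, 381, 356 and 239.97 CPM in OE tumors (log2 fold change 2.67, SE 0.65, unadjusted p = 0.00317, adjusted p = 0.134). OE T1 was far above the other OE tumors, all of which exceeded every EV tumor. Krt6a, which appears in wounded or stressed epithelium, was at 13.8, 14.5 and 14.2 against 11.6, 24.4, 85.02 and 30.7 CPM (log2 fold change 1.43, SE 0.59, unadjusted p = 0.0397, adjusted p = 0.252), with OE T3 highest and OE T1 below every EV tumor. Simple-epithelial keratins other than Krt19 were not at an unadjusted p under 0.05. Krt7 was at 624, 467 and 521 against 63.6, 325, 444 and 439 CPM (log2 fold change −0.76, SE 0.52, unadjusted p = 0.182, adjusted p = 0.466), and Krt8 was at 34.8, 54.4 and 44.1 against 30.8, 89.7, 95.2 and 52.9 CPM (log2 fold change 0.60, SE 0.36, unadjusted p = 0.138, adjusted p = 0.41). Krt80 averaged 142 ± 23.2 CPM (SD, n = 3) in EV and 142 ± 45.2 CPM (SD, n = 4) in OE tumors. OE T1 was the lowest of the 7 tumors for Krt7, Krt8, Krt80 and Krt6a. Among the genes too low to test, Krt5, Krt6b, Krt1, Krt10, Krt2, Krt24, Krt77 and Krt9 had 0 counts in all 7 tumors, and Krt14, Krt17 and Krt12 had at most 5. Krt18, Krt16, Krt20 and Krt23 reached at most 12. Krt76, a keratin of the palate, had 0 counts in every EV tumor and 1 to 16 counts in OE tumors, close to the floor of 3 counts that a count of 0 allows. The shared reads of Krt6a and its close copy Krt6b could be split in the estimates, so that the Krt6a value is less certain.

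Of the 7 keratins higher at an unadjusted p under 0.05, all but Krt6a lay side by side in the genome. On chromosome 11 of GRCm38, Krt13, Krt15 and Krt19 (chr11:100140810-100148665) follow one another within 31.34 kb, with 10.2 and 4.88 kb between them. On chromosome 15, Krt4, Krt79 and Krt78 (chr15:101946001-101954287) follow one another with 4.60 and 5.68 kb between them. Krt8 lies 42.4 kb beyond Krt78, and Krt6a, Krt7 and Krt80 lie on the other side of the cluster, Krt6a 224 kb from Krt4. Position describes these 10 genes and was not tested.

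Both keratin calls depended on which libraries were in the fit, while their direction and size did not. With 1 tumor left out at a time the log2 fold change of Krt19 stayed between 1.96 and 2.30 and that of Krt78 between 2.43 and 2.85, but the adjusted p was above 0.05 without EV T1 (0.0656 for Krt19 and 0.260 for Krt78), EV T2 (0.200 for both), EV T3 (0.127 and 0.195), OE T2 (0.219 for both) or OE T3 (0.137 and 0.151). Without OE T1, 386 genes passed the adjusted threshold (2.62% of 14722, 1.61% higher and 1.01% lower), and 5 keratins rose: Krt78 (2.58), Krt79 (2.37), Krt19 (2.15), Krt15 (1.97) and Krt4 (1.68), each given as a log2 fold change. Without OE T1 and OE T2 together, a fit chosen after the data were seen, 16 genes passed (0.106%, 0.0859% higher and 0.0198% lower), Krt19 and Krt78 among them (2.13 and 2.52). At an unadjusted p under 0.05 the background was 9.9% higher and 8.71% lower without OE T1, and 8.92% higher and 6.73% lower without T1 and T2, and in each of these fits 50.2% of all genes lay above 0 and 49.8% below.

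Beyond keratins, epithelial genes were mixed. The label epithelial was met by some defining markers and not by others. Krt7, Krt8, Cldn3 (166 CPM in EV and 169.7 in OE tumors), and the epithelial transcription factor Grhl2 (103 and 113 CPM) were well expressed. Epcam had at most 3 counts, Dsp at most 3, Cldn7 and Dsc2 had 0, and Cdh1 was at 0.487 to 1.61 CPM. Of the prostate markers, Pbsn had at most 2 counts, while Hoxb13 was at 22.5, 20.7 and 28.99 against 25.9, 22.5, 15.6 and 16.5 CPM. These absences were shared by both groups.

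Among 23 junction and adhesion genes tested, 7 were higher and 1 was lower at an unadjusted p under 0.05, and 7 lay above every EV tumor in all OE tumors. Cldn1, a tight-junction claudin, was at 6.89, 10.5 and 6.03 CPM in EV and 43.02, 32.95, 19.1 and 23.02 CPM in OE tumors (log2 fold change 1.92, SE 0.33, unadjusted p = 0.000308, adjusted p = 0.118). All OE tumors exceeded all EV tumors, and Cldn1 rose without OE T1 (1.68, adjusted p = 0.0204). The plakin Ppl (0.58), the laminin chain Lama3 (0.74) and the junction scaffold Tjp1 (0.44) were among the other higher genes, and Tjp3 (−1.06) was the lower, in log2 fold change. The list's median was 0.04, and 9 of 23 members were below 0. Of 17 regulators of epithelial identity, 0 were at an unadjusted p under 0.05 (median −0.27, and −0.03 without OE T1).

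Genes of the mesenchymal list were also higher rather than lower. Of 14 tested, 6 were higher and 0 lower at an unadjusted p under 0.05, with a median of 0.53 (0.60 without OE T1). The receptor tyrosine kinase Axl was at 42.1, 47.8 and 56.5 CPM in EV and 276, 101, 106 and 69.7 CPM in OE tumors (log2 fold change 1.503, SE 0.44, unadjusted p = 0.00883, adjusted p = 0.16). The integrin chain Itga5 was at 80.1, 95.2 and 95.2 against 315, 214, 224 and 129 CPM (log2 fold change 1.29, SE 0.26, unadjusted p = 0.00102, adjusted p = 0.123). The calcium-binding protein S100a4 was at 6.56, 8.95 and 5.93 against 24.8, 24.6, 20.1 and 12.6 CPM (log2 fold change 1.52, SE 0.27, unadjusted p = 0.000392, adjusted p = 0.118). For each of these the lowest OE tumor was T4, and it exceeded every EV tumor. Axl, Itga5 and S100a4 rose without OE T1 (log2 fold changes 0.92, 1.07 and 1.42, adjusted p = 0.0264, 0.0260 and 0.0270). Fn1 (0.68), Vim (0.65) and Twist2 (1.03) were the other 3 at an unadjusted p under 0.05, and Zeb1 had −0.15. In a bulk tumor, a change in the number of stromal or other cells and a change of RNA per cell cannot be told apart. In 4 unstimulated cultured Myc-CaP libraries the 6 higher genes averaged 154 (Axl), 74.3 (Itga5), 237 (S100a4), 438 (Fn1), 277 (Vim) and 28.7 TPM (Twist2). Zeb2 averaged 48.8 TPM there, while Cdh11, Cdh2, Mmp2, Snai1, Snai2, Tnc and Zeb1 were each under 1 TPM. None of these others was at an unadjusted p under 0.05. The source of the higher values was not tested. The 18 fibroblast genes had a median of 0.20, with 1 higher (Sparc, 0.60) and 0 lower at an unadjusted p under 0.05, and a summed level of 1767, 1939 and 2685 CPM in EV and 1449, 2627, 3621 and 2905 CPM in OE tumors.

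Within the androgen and prostate list, 3 of 11 genes tested were higher and 4 lower at an unadjusted p under 0.05. Reads assigned to the mouse gene Myc were at 1637, 1649 and 1331 against 1040.03, 1055, 867 and 1303 CPM (log2 fold change −0.53, SE 0.14, unadjusted p = 0.00494, adjusted p = 0.145). Whether they come from the Myc copy that drives this line cannot be told from these counts. All OE tumors were below all EV tumors. Fkbp5, an androgen-responsive chaperone, had −0.41 and the peptidase Mme −0.35. The progenitor factor Sox9 was at 20.2, 36.4 and 25.4 against 148, 58.01, 59.2 and 32.8 CPM (log2 fold change 1.45, SE 0.48, unadjusted p = 0.0159, adjusted p = 0.188), with OE T4 inside the EV range. Foxa1 (0.26) and Psca (0.48) were the other higher genes.

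Cell cycle genes of G2 and mitosis were higher in OE tumors as a set of small differences. All 35 G2/M genes were tested, 20 were higher and 0 lower at an unadjusted p under 0.05, and 35 of 35 had a log2 fold change above 0, against 50.4% above and 49.6% below 0 over all genes tested. Their median was 0.57, and none passed the adjusted threshold. Aspm, a spindle-pole protein, was at 63.95, 59.5 and 65.8 CPM in EV and 179, 108, 85.1 and 89.6 CPM in OE tumors (log2 fold change 0.87, SE 0.25, unadjusted p = 0.00776, adjusted p = 0.157). The centromere protein Cenpf was at 125, 127 and 136 against 305, 217, 172 and 174 CPM (log2 fold change 0.75, SE 0.20, unadjusted p = 0.00505, adjusted p = 0.145). The mitotic kinesin Kif11 was at 93.7, 101 and 98.7 against 205, 168, 109.6 and 128 CPM (log2 fold change 0.64, SE 0.20, unadjusted p = 0.0115, adjusted p = 0.172). In each, OE T1 was the highest and OE T3 the lowest OE tumor, and no OE tumor fell into the EV range. Mki67, the common proliferation marker, was at 589, 486 and 555 against 1032, 693, 557 and 606 CPM (log2 fold change 0.41, SE 0.20, unadjusted p = 0.0771, adjusted p = 0.325), where OE T3 lay inside the EV range. Top2a, a topoisomerase that untangles chromosomes, had 0.60 (unadjusted p = 0.0399, adjusted p = 0.252), and Ccnb1, the cyclin of mitotic entry, 0.74 (unadjusted p = 0.0179, adjusted p = 0.196).

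**Figure D2:**
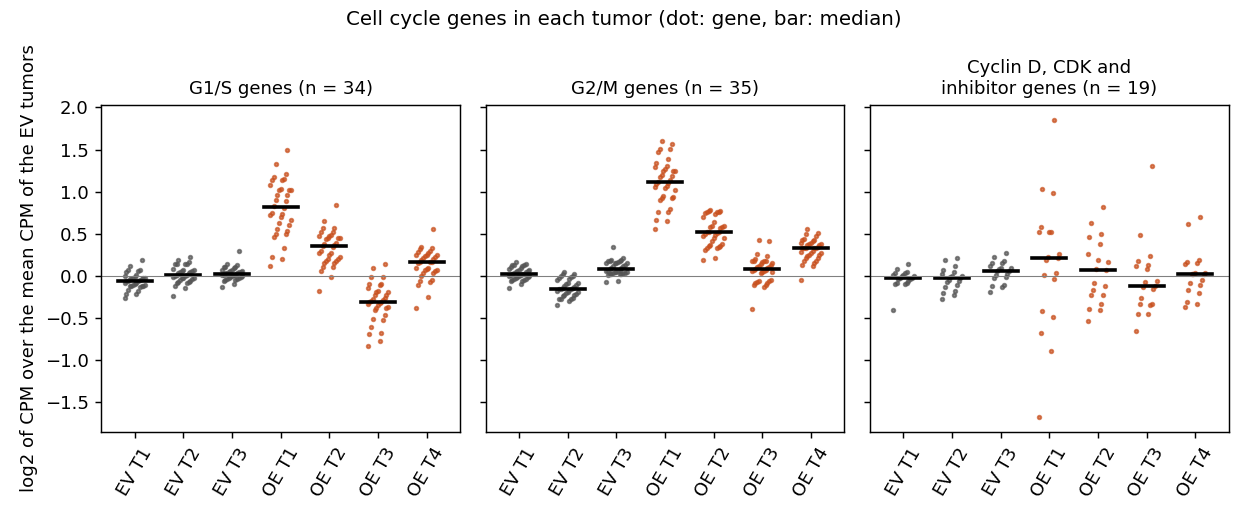
log2 of each gene's CPM over the mean CPM of the EV tumors, in each of the 7 tumors, for 34 G1/S genes, 35 G2/M genes and 19 genes of the cyclin D, CDK and inhibitor list (dot: gene, bar: median). The G2/M medians are highest in OE T1, then OE T2, OE T4 and OE T3, and the G1/S median of OE T3 lies below the EV tumors.

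DNA replication genes of the G1/S list had a smaller median. Of 34, 4 (Rrm2, Dut, Cdt1 and Mcm6) were higher and 0 lower at an unadjusted p under 0.05, and the median of 0.30 became 0.10 without OE T1 and −0.05 without OE T1 and T2. Rrm2, a subunit of ribonucleotide reductase, was at 119, 147 and 134 against 376, 239.6, 125 and 197 CPM (log2 fold change 0.81, SE 0.32, unadjusted p = 0.0326, adjusted p = 0.239). The summed G1/S level was 1922, 2039 and 2024 CPM in EV and 3753, 2607, 1690.4 and 2258 CPM in OE tumors, with OE T3 the lowest of the 7. The G2/M sum was 3089, 2774 and 3202 against 6666, 4392, 3225 and 3727 CPM. The tumor order of this sum within OE began with T1 and T2, the tumors with 1654 and 420.3 CPM of muscle transcripts, whose part in the difference was not tested. Without OE T1 the G2/M median was 0.33, 18 of 35 were higher at an unadjusted p under 0.05, and Aspm (0.58, adjusted p = 0.0264) and Cenpf (0.54, adjusted p = 0.0298) rose. Without T1 and T2 the median was 0.21, with 33 of 35 above 0 and 13 higher at an unadjusted p under 0.05. Of 19 cyclin D, CDK and inhibitor genes, Cdkn1c (1.05) and Cdkn2b (0.82), both CDK inhibitors, were higher and Fbxw7 (−0.50), a ubiquitin ligase subunit that targets cyclin E, was lower at an unadjusted p under 0.05, around a median of 0.00. Ccnd1, cyclin D1, had 0.47 (unadjusted p = 0.0579) and Cdkn1a, the inhibitor p21, −0.19 (unadjusted p = 0.248).

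CCAAT boxes, which the trimer NF-Y binds, are a known feature of G2/M promoters. The letters CCAAT on either strand stood within 250 bases upstream of the start in 22 of 29 G2/M promoters that could be matched in RefSeq (28 of 35 genes, 75.9%), in 18 of 31 G1/S promoters (58.1%) and in 33.8% of all 32851 promoters. A single window is shown for each of 4 members named above, with the motif, or its reverse complement ATTGG, in capitals. Windows are on the strand of the gene and in GRCm38.p6. Further matches in Aspm, Cenpf and Ccnb1, and those in Mki67 and Top2a, are not shown. A match describes these letters and is no measurement of binding. NF-Y genes themselves differed little, with log2 fold changes of −0.01 for Nfya, 0.31 for Nfyb and 0.05 for Nfyc.
Aspm, chr1:139454675-139454699: tcgttcgctcATTGGctctttttag
Cenpf, chr1:189688204-189688228: tccaaaagggCCAATcagaggcggc
Kif11, chr19:37376327-37376351: ccgctctgctATTGGtccggtcagt
Ccnb1, chr13:100786539-100786563: cacgaactggCCAATgaggagcgag

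Among MHC class II genes, the invariant chain Cd74 (chr18:60803848-60812652 of GRCm38) fell. It chaperones class II molecules to the endosome and was the only 1 of the 10 genes on the class II chain list that was analysed here. Cd74 was at 61.5, 123 and 152 CPM in EV and 21.02, 17.7, 19.5 and 17.99 CPM in OE tumors, 5.89-fold lower in OE (log2 fold change −2.56, SE 0.27, unadjusted p = 8.73e-06, adjusted p = 0.0425). The 4 OE tumors lay close together, OE T1 included, and far below the lowest EV tumor. With 1 tumor left out at a time the log2 fold change stayed between −2.85 and −2.27, but the adjusted p of Cd74 was above 0.05 without EV T2 (0.210), EV T3 (0.127), OE T2 (0.219) or OE T3 (0.151). H2-Ea, a class II alpha chain gene outside that list, was too low to test, at 6 to 15 counts in EV and 0 to 4 in OE tumors. Other class II chains were not analysed here.

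Ciita, the factor that switches on class II genes, was at 3.06, 5.21 and 7.51 CPM in EV and 2.38, 2.63, 2.12 and 2.36 CPM in OE tumors (log2 fold change −1.15, SE 0.30, unadjusted p = 0.00454, adjusted p = 0.141). Ctss, the protease that removes the last part of the invariant chain, was at 70.4, 59.7 and 103 against 13.2, 24.6, 48.99 and 32.02 CPM (log2 fold change −1.38, SE 0.38, unadjusted p = 0.00612, adjusted p = 0.151). Every OE tumor was below every EV tumor for both in CPM. On the TPM scale this held for Ctss but not for Ciita, where OE T3 (1.19 TPM) lay above EV T1 (0.826 TPM). Marchf1, a ligase that clears class II from the surface, was at 5.79, 6.80 and 8.47 against 1.98, 5.07, 4.65 and 5.14 CPM (log2 fold change −0.74, SE 0.32, unadjusted p = 0.0465, adjusted p = 0.267), with OE T1 well below the rest. Of the 14 control and processing genes tested, 5 (Ciita, Ctss, Marchf1, Ctsl and Cd86) were lower and 0 higher at an unadjusted p under 0.05, with a median of −0.25. The costimulatory ligand Cd86 was at 1.20, 3.85 and 3.81 against 0.595, 0.78, 1.63 and 1.93 CPM, with EV T1 inside the OE range, and the related ligand Cd80 had −0.60. Cd40, the costimulatory receptor, was at 17.3, 19.3 and 17.5 against 16.7, 14.8, 22.5 and 18.5 CPM. The constant subunits of the class II promoter complex showed small differences, with log2 fold changes of −0.24 for Rfx5, 0.15 for Rfxank and 0.10 for Rfxap. The protease Lgmn had −0.25. The 16 libraries of cultured Myc-CaP cells included some given IFN-γ or a UBA1 inhibitor and some carrying a Uba1 guide. Over these 16, Cd74 was at 0 in 9 and at most 0.603 TPM, and Ctss was at 0 in all. In the 4 unstimulated control libraries among them, Cd74 was at 0. Ptprc, which encodes the leukocyte marker CD45, was at 14.6, 22.7 and 21.9 against 7.14, 11.1, 16.3 and 10.5 CPM in the tumors (log2 fold change −0.80, SE 0.27, unadjusted p = 0.0176, adjusted p = 0.195). On the TPM scale Ptprc did not overlap, at 8.50, 8.74 and 15.003 against 2.92, 5.28, 5.19 and 4.07 TPM. Its part in the Cd74 difference was not tested.

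**Figure D3:**
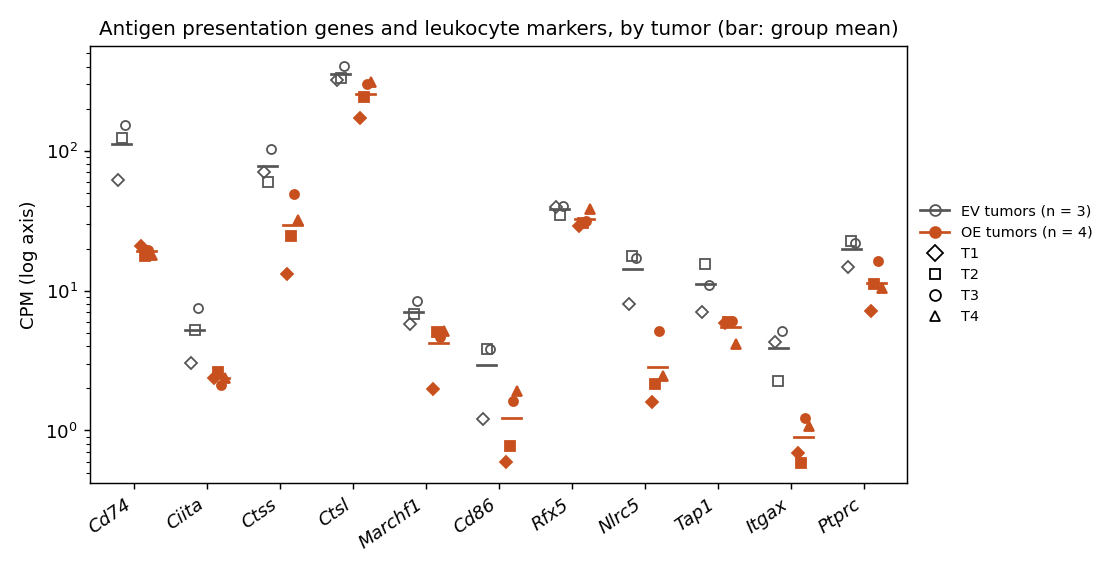
Level in CPM on a log axis of class II genes (Cd74, Ciita, Ctss, Ctsl, Marchf1, Cd86, Rfx5), class I genes (Nlrc5, Tap1) and leukocyte markers (Itgax, Ptprc) in each EV tumor (open, n = 3) and OE tumor (filled, n = 4), with a bar at the group mean and symbol shape giving the tumor number. Cd74 forms a tight OE group at 17.7 to 21.0 CPM below all EV tumors, while Rfx5 and Ptprc overlap between the groups on this scale.

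Nlrc5, the counterpart of Ciita for class I genes, was at 7.98, 17.6 and 17.2 CPM in EV and 1.59, 2.14, 5.14 and 2.46 CPM in OE tumors (log2 fold change −2.31, SE 0.42, unadjusted p = 0.000486, adjusted p = 0.122). Tap1, a subunit of the peptide transporter, was at 6.997, 15.6 and 11.01 against 5.85, 5.95, 6.11 and 4.18 CPM (log2 fold change −1.02, SE 0.27, unadjusted p = 0.00547, adjusted p = 0.147). The groups did not overlap for either gene. B2m, the light chain of class I, was at 961, 1070.3 and 925 against 234, 625, 956 and 1012 CPM (log2 fold change −0.48, SE 0.41, unadjusted p = 0.273, adjusted p = 0.557), and there only OE T1 and OE T2 lay below the EV tumors. Of the 15 class I pathway genes, 3 (Nlrc5, Tap1 and the immunoproteasome subunit Psmb9, −1.38) were lower and 0 higher at an unadjusted p under 0.05. The median of −0.27 was −0.15 without OE T1, where Nlrc5 fell (−2.10, adjusted p = 0.0277). Of the class Ib genes, H2-Q5 was at 43.2, 54.3 and 56.3 against 30.1, 25.7, 37.98 and 29.4 CPM (log2 fold change −0.73, unadjusted p = 0.00121), with all OE tumors lower.

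Interferon-responsive genes were lower in OE tumors across both lists, at low levels. Of 23 IFN-γ effector genes tested, 17 were lower and 1 higher at an unadjusted p under 0.05 (median −1.42, and −1.15 without OE T1). Of 31 type I interferon genes, 12 were lower and 0 higher (median −0.82, and −0.49 without OE T1). None passed the adjusted threshold. The GTPase genes Igtp (3.50, 15.9 and 8.47 against 0.991, 1.75, 3.83 and 1.71 CPM, log2 fold change −2.13) and Tgtp2 (3.17, 14.04 and 9.31 against 1.49, 0.585, 3.34 and 1.28 CPM, −2.36) illustrate the spread. EV T1 was the lowest EV tumor for both and fell inside the OE range, and OE T3 was the highest OE tumor. Reads of near-identical copies such as Tgtp1 and Tgtp2 may be divided between them. The chemokine gene Cxcl9, whose product draws T cells, was at 2.95, 14.04 and 12.9 against 3.97, 2.73, 2.12 and 1.499 CPM (log2 fold change −1.95, SE 0.52, unadjusted p = 0.00505, adjusted p = 0.145), and Cxcl10 at 1.53, 2.72 and 2.65 against 0.297, 1.17, 0.978 and 0.857 CPM (log2 fold change −1.45, SE 0.41, unadjusted p = 0.00743, adjusted p = 0.156). Cxcl9 overlapped between the groups and Cxcl10 did not. Ido1, a tryptophan-degrading enzyme induced by IFN-γ, ran the other way, at 2.62, 15.2 and 7.62 against 18.9, 24.3, 36.8 and 12.5 CPM (log2 fold change 1.46, SE 0.54, unadjusted p = 0.027, adjusted p = 0.226), with OE T4 inside the EV range. Cultured Myc-CaP control libraries held Ido1 at 12.3 to 15.6 TPM without stimulation and at up to 31.1 TPM with IFN-γ. Among type I genes, Zbp1 (−1.54), Ddx58 (−0.53) and Oasl1 (−1.40) had the smallest p-values, while Isg15 had 0.33 (unadjusted p = 0.159).

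The genes that carry the interferon signal were mixed. Jak1 was at 102, 109.5 and 113 against 149, 112, 124 and 108 CPM (log2 fold change 0.19, SE 0.12, unadjusted p = 0.164, adjusted p = 0.444), and Irf1, an early interferon target, at 46.2, 44.2 and 52.6 against 38.8, 40.3, 50.5 and 40.5 CPM (log2 fold change −0.16, SE 0.12, unadjusted p = 0.214, adjusted p = 0.5). Both overlapped between the groups. The receptor genes Ifngr1, Ifngr2, Ifnar1 and Ifnar2 had log2 fold changes of −0.24, −0.24, −0.03 and −0.01, and the ligase gene Stub1 had −0.08. Socs3, a feedback inhibitor of JAK signalling, was at 13.7, 13.8 and 14.8 against 34.7, 29.5, 30.6 and 20.99 CPM (log2 fold change 1.04, SE 0.17, unadjusted p = 0.000281, adjusted p = 0.118), above every EV tumor in all OE tumors, and it rose without OE T1 (0.94, adjusted p = 0.0259). Of the 16 signalling genes, 1 was higher, Socs3, and 3 were lower at an unadjusted p under 0.05, Stat2 and Ptpn6 among them. Ifng itself had 0 counts in all 7 tumors.

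An interferon-stimulated response element, read here on both strands as GAAA, any 2 bases and GAAA again, stood within 250 bases upstream of the start in 11 of 20 promoters of the IFN-γ list that could be matched in RefSeq (17 of 28 genes, 55%), in 12 of 28 of the type I list (42.9%) and in 2.98% of all promoters. The STAT site TTCNNNGAA stood in 9 of 20 of the IFN-γ list (45%), against 7.02% of all promoters. The first 4 windows hold the response element, in capitals and on the strand of the gene, from genes with lower values in OE tumors (Gbp2, log2 fold change −1.61, and the 3 described above), and the last holds the STAT site of Irf1, whose level differed little.
Cxcl10, chr5:92349083-92349112: tcacgctttgGAAAGTGAAActtacctcac
Gbp2, chr3:142620594-142620623: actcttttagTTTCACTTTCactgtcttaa
Igtp, chr11:58199512-58199541: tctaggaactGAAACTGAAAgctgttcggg
Tgtp2, chr11:49064263-49064292: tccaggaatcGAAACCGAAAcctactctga
Irf1, chr11:53769914-53769942: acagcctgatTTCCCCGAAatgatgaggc

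Myeloid genes went in both directions. Over the 6 myeloid lists (macrophages, monocytes, neutrophils, dendritic cells, mast cells and basophils, and chemokines and growth factors that act on these cells), 71 genes were tested, 11 were higher and 17 lower at an unadjusted p under 0.05, and the median was −0.22. Dendritic genes included Itgax, which encodes CD11c, at 4.26, 2.27 and 5.19 CPM in EV and 0.694, 0.585, 1.22 and 1.07 CPM in OE tumors (log2 fold change −2.11, SE 0.37, unadjusted p = 0.000396, adjusted p = 0.118). Ccl22, a chemokine of mature dendritic cells, was at 1.20, 1.59 and 1.90 against 0.793, 0.39, 0.408 and 0.321 CPM (log2 fold change −1.69, SE 0.39, unadjusted p = 0.00211, adjusted p = 0.125). Il1b, the inflammatory cytokine, was at 1.97, 3.06 and 1.80 against 0.595, 0.682, 0.408 and 0.857 CPM (log2 fold change −1.84, SE 0.35, unadjusted p = 0.000614, adjusted p = 0.123). All 3 were lower in every OE tumor than in every EV tumor, and all 3 fell without OE T1 (adjusted p = 0.0344, 0.0367 and 0.0469). Of 10 dendritic genes tested, 4 were lower (Itgax, Ccl22, Irf8 and Xcr1) and 1 higher (Cd24a, 1.73).

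Macrophage genes were split. Of 30 tested, 6 were higher and 5 lower at an unadjusted p under 0.05, and the median was −0.36, −0.10 without OE T1 and 0.13 without OE T1 and T2. On the lower side stood Aif1, which encodes the marker IBA1, at 3.17, 4.19 and 4.13 against 0.991, 0.487, 1.71 and 1.28 CPM (log2 fold change −1.75, SE 0.36, unadjusted p = 0.00102, adjusted p = 0.123), the complement gene C1qa at 45.5, 50.4 and 53.7 against 12.5, 26.9, 39.04 and 30.6 CPM (log2 fold change −0.87, SE 0.31, unadjusted p = 0.0218, adjusted p = 0.211), and Cx3cr1 (−0.61), Ms4a7 (−1.14) and C1qb (−0.74). On the higher side stood Lyve1, a hyaluronan receptor of resident perivascular macrophages and lymphatic vessels, at 1.20, 1.02 and 1.48 against 1.98, 3.31, 7.58 and 3.11 CPM (log2 fold change 1.70, SE 0.49, unadjusted p = 0.00796, adjusted p = 0.157). The scavenger receptor Cd163 was at 2.51, 1.93 and 1.90 against 3.47, 3.12, 3.34 and 5.14 CPM (log2 fold change 0.82, SE 0.26, unadjusted p = 0.0119, adjusted p = 0.175). Gpnmb, a glycoprotein of lipid-laden macrophages and of some tumors, was at 120.04, 141 and 142 against 611, 222, 211 and 204 CPM (log2 fold change 1.22, SE 0.40, unadjusted p = 0.0148, adjusted p = 0.184). In these 3 genes all OE tumors exceeded all EV tumors, with OE T3 highest for Lyve1, OE T4 for Cd163 and OE T1 for Gpnmb. Without OE T1, Gpnmb (0.66, adjusted p = 0.0184) and Lyve1 (1.93, adjusted p = 0.0454) rose and Aif1 fell (−1.69, adjusted p = 0.0490). The core markers Csf1r (30.1, 34.2 and 38.8 against 17.1, 21.4, 35.8 and 25.4 CPM), Adgre1 (16.6, 15.2 and 20.3 against 3.67, 8.87, 14.998 and 12.5 CPM) and Itgam (16.4, 16.6 and 21.8 against 10.6, 14.3, 27.96 and 14.8 CPM) did not pass an unadjusted p of 0.05.

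Cultured Myc-CaP cells gave a way to see which of these genes the cancer cells express on their own. The 71 genes were split by their mean in 4 unstimulated control libraries, a split chosen after the values were seen. Of the 25 at 1 TPM or more, 7 were higher and 3 lower at an unadjusted p under 0.05 in OE tumors (28% and 12%, median 0.12). Of the 46 under 1 TPM, 4 were higher and 14 lower (8.7% and 30.4%, median −0.41). Over all genes tested, the shares were 11.9% higher and 6.99% lower at 1 TPM or more (median 0.03) and 2.77% and 12.6% under 1 TPM (median −0.21). Gpnmb (30.0 to 34.2 TPM in the 4 cultured libraries), Spp1 (285 to 307 TPM), Cd24a (92.1 to 121 TPM), Mertk (10.5 to 16.6 TPM), Cd14 (8.94 to 14.2 TPM) and Csf1 (13.01 to 21.65 TPM) belonged to the first class, and all were higher in OE tumors. Fn1 (377 to 469 TPM), which is on the monocyte list, was the remaining higher gene of that class. Itgax and Ccl8 were at 0 TPM in these libraries and lower in OE tumors. The 3 lower genes at 1 TPM or more were Nr4a1 (−0.41), Ccr2 (−0.60) and Irf8 (−0.58). The 4 higher genes under 1 TPM were Lyve1 and Clec4e (both 0 TPM), Cd163 (at most 0.211 TPM) and F13a1 (at most 0.0396 TPM), the clotting factor subunit made by monocytes and macrophages. F13a1 was at 24.3, 16.4 and 27.3 against 29.1, 43.2, 89.01 and 38.01 CPM (log2 fold change 1.14, SE 0.38, unadjusted p = 0.0163, adjusted p = 0.19).

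**Figure D4:**
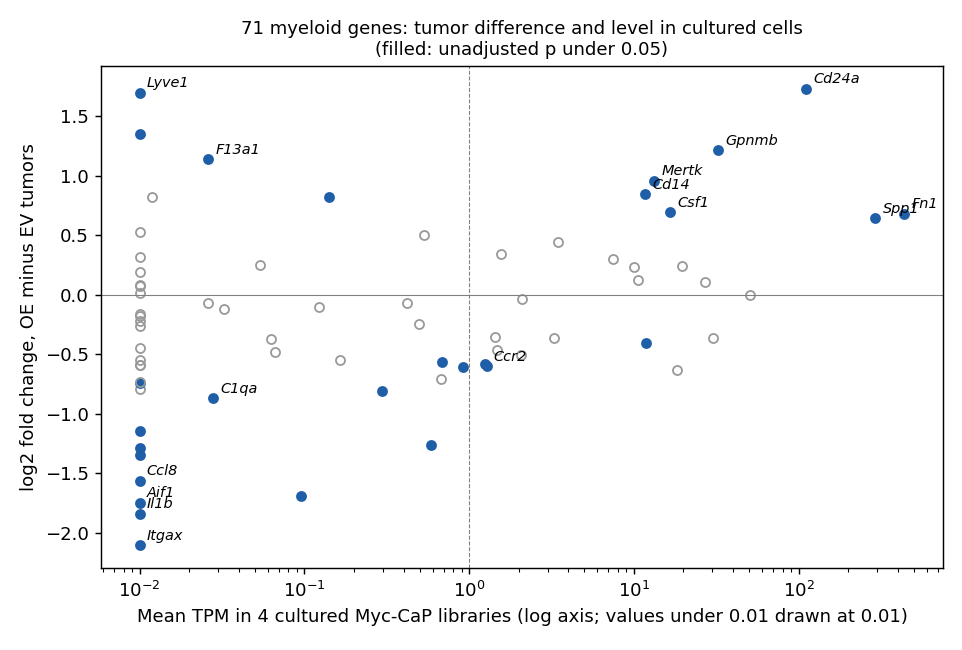
log2 fold change between OE and EV tumors (vertical) against the mean TPM in 4 cultured Myc-CaP libraries (log axis, values under 0.01 drawn at 0.01) for 71 myeloid genes, filled where the unadjusted p was under 0.05. To the right of the 1 TPM line most filled points lie above 0, with Cd24a at 1.73 and Gpnmb at 1.22, and to the left most lie below 0, with Itgax at −2.11.

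Neutrophil genes were mostly too low to test, with Ly6g, Cxcr1 and Ngp at 0 counts and S100a8 and S100a9 at 11 counts or fewer. Of 6 tested, Clec4e was higher (1.35) and Csf3r (−0.81) and Il1b lower at an unadjusted p under 0.05. Monocyte genes gave Ccr2 at 9.95, 11.3 and 13.7 against 6.44, 7.60, 8.23 and 8.46 CPM (log2 fold change −0.60, SE 0.17, unadjusted p = 0.00711, adjusted p = 0.155) and Nr4a1 at −0.41 on the lower side, and Fn1 and F13a1 on the higher. Chemokines of stromal and myeloid cells included Ccl8, at 18.5, 13.5 and 31.005 against 4.06, 6.73, 9.62 and 7.92 CPM (log2 fold change −1.56, SE 0.34, unadjusted p = 0.00158, adjusted p = 0.123), and Ccl11, at 2.73, 2.49 and 3.07 against 1.19, 0.877, 1.14 and 1.39 CPM (log2 fold change −1.26, SE 0.25, unadjusted p = 0.000764, adjusted p = 0.123). Both were lower in every OE tumor, and Ccl8 fell without OE T1 (−1.37, adjusted p = 0.0406). Ccl12 and Cxcl16 were the other lower chemokines. Csf1, the growth factor of macrophages, was at 14.8, 14.04 and 16.4 against 27.7, 17.5, 33.8 and 18.4 CPM (log2 fold change 0.69, SE 0.24, unadjusted p = 0.0202, adjusted p = 0.205). Mast cell and basophil genes gave 2 that could be tested, Kit and Cd200r3, and neither was at an unadjusted p under 0.05.

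Lymphocyte transcripts were near the limit of detection. Of 26 T and NK cell genes, 5 could be tested, and 4 were lower at an unadjusted p under 0.05 (median −1.23, and −0.91 without OE T1, with 2 lower). Cd8a was at 13.4, 7.93 and 10.5 CPM in EV and 1.39, 4.19, 5.46 and 6.75 CPM in OE tumors (log2 fold change −1.25, SE 0.42, unadjusted p = 0.0175, adjusted p = 0.193), and Il2rb at 1.53, 3.96 and 2.33 against 0.694, 0.78, 1.30 and 1.07 CPM (log2 fold change −1.41, SE 0.39, unadjusted p = 0.00625, adjusted p = 0.152). The summed level of the list was 36.3, 34.7 and 35.7 against 9.42, 13.4, 20.8 and 23.6 CPM, lower in each OE tumor than in each EV tumor. Transcripts of this list were not limited to lymphocytes: in 4 unstimulated cultured Myc-CaP libraries Cd8a was at 0.912 to 1.08 TPM and Cd3d at 2.86 to 5.92 TPM, with Il2rb at most 0.216 TPM and Ccl5 at 0. Gzmb had at most 3 counts, Prf1 at most 7 and Cd3e at most 16. Of 15 genes shared by leukocytes, 4 (Ptprc, Vav1, Nckap1l and Dock2) were lower and 0 higher at an unadjusted p under 0.05 (median −0.37, and −0.18 without OE T1), with a summed level of 453, 519 and 482 against 233, 393, 479 and 439 CPM. There OE T3 lay inside the EV range. Of the B and plasma cell genes, Cd22 was the one tested (−0.46).

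Red cell genes were higher in OE tumors, 4 of 5 at an unadjusted p under 0.05 and a median of 1.47 (1.63 without OE T1). Hba-a1 was at 53.8, 102 and 99.6 against 144, 174, 297 and 271 CPM (log2 fold change 1.38, SE 0.31, unadjusted p = 0.00205, adjusted p = 0.125) and rose without OE T1 (1.54, adjusted p = 0.0237). Globin genes are near-identical copies whose reads may be divided. In 4 unstimulated cultured Myc-CaP libraries Hba-a1 was at 2.39 to 40.9 TPM, so it was not limited to red cells. Hbb-bs, at most 0.134 TPM there, was at 26.5, 61.8 and 56.1 against 98.0, 95.5, 222 and 222 CPM in the tumors. Of 15 endothelial genes, 0 were higher and Vwf was lower, at 38.2, 35.9 and 31.9 against 4.66, 9.55, 15.98 and 24.2 CPM (log2 fold change −1.38, SE 0.43, unadjusted p = 0.0123, adjusted p = 0.177), while Pecam1 had 0.09 and Kdr 0.08. The summed level of skeletal muscle genes was high in OE T1 and T2 alone, while Des, Mylpf and Cmya5 also lay above every EV tumor in OE T3 and T4. In 4 unstimulated cultured Myc-CaP libraries Tnni2 was at 53.2 to 72.5 TPM, Mylpf at 6.01 to 8.40 TPM and Des at 0. A low sum is therefore no measure of muscle. The giant sarcomere protein gene Ttn was at 0.875, 2.60 and 1.06 CPM in EV and 870.1, 185, 0.897 and 1.07 CPM in OE tumors, and Myh4, which had 0 counts in EV tumors, reached 3185 counts. Des, an intermediate filament gene of muscle, was at 2.84, 3.51 and 2.33 against 26.2, 13.4, 9.70 and 4.60 CPM (log2 fold change 2.22, SE 0.55, unadjusted p = 0.00357, adjusted p = 0.135). Of 18 genes of cornified skin, 11 had 0 counts in all 7 tumors, Lor, Ivl and Flg among them, and the 2 tested, Calml3 and Sbsn, had log2 fold changes of −1.40 (unadjusted p = 0.00876) and −0.33. Of 8 adipocyte genes tested, 0 were at an unadjusted p under 0.05.

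Among genes without overlap between the groups (mean log2 CPM not under 1, unadjusted p under 0.05), the 10 largest positive differences were Fat2, Mylpf, Pax2, Cdsn, Cmya5, Gm12295, Cck, Clcf1, Fosl1 and Tmem100, from 4.60 to 2.71 in log2 fold change. Fosl1, a subunit of the AP-1 transcription factor, was at 5.36, 12.9 and 4.34 CPM in EV and 108, 54.2, 39.5 and 32.6 CPM in OE tumors (log2 fold change 2.96, SE 0.54, unadjusted p = 0.000471, adjusted p = 0.122). Clcf1, a cytokine of the IL-6 family, was at 3.94, 7.59 and 3.28 against 73.4, 33.8, 36.5 and 17.3 CPM (log2 fold change 3.03, SE 0.53, unadjusted p = 0.00035, adjusted p = 0.118). Cdsn, an adhesion protein of cornifying epithelium, was at 3.61, 4.98 and 3.81 against 98.2, 30.5, 30.3 and 20.1 CPM (log2 fold change 3.44, SE 0.60, unadjusted p = 0.000384, adjusted p = 0.118). OE T1 was the highest tumor in each, and the other OE tumors still exceeded all EV tumors. Fosl1 rose without OE T1 (2.49, adjusted p = 0.0184). Mylpf and Cmya5 are muscle genes, with OE T1 at 23.3 and 24.7 CPM and OE T2 at 13.5 and 6.43 CPM.

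On the other side, the 10 largest negative differences included Retnla, Defb45, Etnk2, Clca1, Spink5, Gm12886, Gm10719, Fam89a and Slc38a3, from −4.55 to −2.60. Retnla, a secreted product of alternatively activated macrophages, was at 5.47, 2.15 and 13.02 CPM in EV and 0.297, 0.0975, 0.571 and 0.107 CPM in OE tumors (log2 fold change −4.55, SE 0.73, unadjusted p = 0.00021, adjusted p = 0.118), and it was at 0 TPM in all 16 cultured libraries. Spink5, a protease inhibitor of epithelia, was at 34.98, 8.04 and 25.5 against 0.297, 1.56, 4.32 and 7.82 CPM (log2 fold change −2.71, SE 0.77, unadjusted p = 0.00727, adjusted p = 0.155). These genes had 1 to 73 counts in OE tumors, so their folds are imprecise. None of the 20 genes passed the adjusted threshold with all 7 tumors.

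Set beside other Myc-CaP groups of the series, the EV tumors were the control group with the lowest levels of both keratins that rose. On the TPM scale Krt78 was at 19.1 ± 5.44 (SD, n = 3) in EV and 113 ± 30.1 (SD, n = 4) in OE tumors. It was at 103 ± 107 (SD, n = 3, range 34.4 to 226) in tumors with a control guide and 168 ± 95.8 (SD, n = 6, range 61.3 to 298) in vehicle-treated tumors. Krt19 was at 33.5 ± 8.94 in EV and 144 ± 24.99 in OE tumors, against ranges of 251 to 1194 with the control guide and 71.3 to 356 with vehicle. Thus every EV tumor lay below every tumor of the other 2 control groups for both genes. Cd74 was at 88.7 to 218 TPM in EV and 24.7 to 27.8 TPM in OE tumors, against 39.5 to 86.8 with the control guide and 17.4 to 93.98 with vehicle. These groups come from separate experiments with depths up to 35047070 counts, and no test was made between them.

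**Figure D5:**
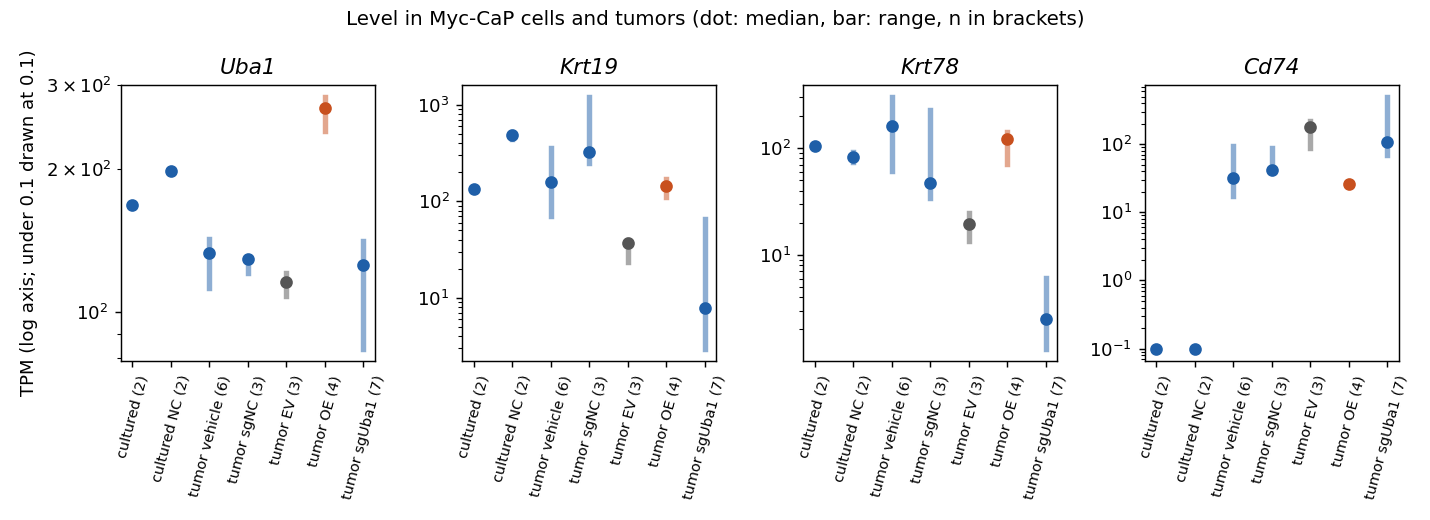
Level of Uba1, Krt19, Krt78 and Cd74 in TPM (log axis, values under 0.1 drawn at 0.1) in cultured Myc-CaP cells and 5 groups of Myc-CaP tumors, as the median (dot) and range (bar), with the number of libraries in brackets. OE tumors hold the highest Uba1 level, EV tumors have less Krt19 and Krt78 than the vehicle and control-guide tumors, and Cd74 is at or near 0 in cultured cells.

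The opposite manipulation, tumors labelled sgUba1 (a guide against Uba1, n = 7) against their own control guide (n = 3), shares no sample with this experiment. By the paper's methods, cells given a guide were expanded from single cells, whereas the OE and EV cells were selected pools. The tumor titles name neither guide nor clone, so an effect of the clone and an effect of Uba1 cannot be told apart. In the fit below the OE effect itself was 2.16 for Krt19 and 2.63 for Krt78. In 1 fit over the 17 tumors, the OE effect minus the sgUba1 effect passed an adjusted p of 0.05 for 1698 of 16502 genes (10.3%), 959 with a positive and 739 with a negative difference. The difference was 7.38 on the log2 scale for Krt19 (adjusted p = 0.00289), 7.77 for Krt78 (adjusted p = 0.000389), 5.77 for Krt4 (adjusted p = 0.00221), 7.48 for Krt15 (adjusted p = 0.00611) and −4.17 for Cd74 (adjusted p = 0.00540). Without control-guide tumor 2 the keratin differences were 6.40 for Krt19, 6.49 for Krt78, 4.47 for Krt4 and 6.54 for Krt15, still past the adjusted threshold (adjusted p = 0.00695, 4.34e-05, 0.00346 and 0.0178). For these 4 keratins every tumor labelled sgUba1 was below every control-guide tumor, with Krt78 at 2.84 ± 1.56 TPM (SD, n = 7), while Krt80 (66.9 ± 25.1 against 38.4 ± 19.8 TPM) and Krt6a (13.99 ± 11.3 against 5.83 ± 3.94 TPM) had higher means there and Krt7 was nearly level. The tumors labelled sgUba1 were at a higher mean for Cd74, at 177 ± 149.6 TPM (SD, n = 7). Cxcl10 had −2.49 (adjusted p = 0.0442, from 0.0126 to 0.114 over the alternatives) and Cxcl9 −3.002 (adjusted p = 0.0722). In this fit the OE effect on its own passed the adjusted threshold for 0 genes (2096 at an unadjusted p under 0.05), with Uba1 at an adjusted p of 0.125. The tumors labelled sgUba1 had 113 ± 26.2 TPM of Uba1 (SD, n = 7) against 127 ± 5.46 TPM (SD, n = 3) in their controls, a transcript level that does not by itself check a guide acting on the DNA.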

How the data were processed

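Expected counts per gene and TPM values, a length-corrected level, for 51 libraries, 7 of them from these tumors, were deposited by the authors in tables of 40077 genes. The submitters' processing notes name kallisto and mm10. The authors' methods describe ribosomal RNA depletion, whereas the sample labels name oligo(dT), so the selection of RNA is uncertain. Expected counts were rounded to whole numbers. Genes were filtered with filterByExpr, scaled by TMM and tested with edgeR 4.0.16 in R 4.3.3 by the quasi-likelihood F test on the 7 tumors, with Benjamini-Hochberg adjustment and a threshold of 0.05. CPM values use TMM-scaled library sizes. Of the genes in the table, 16098 had 0 counts in the 7 tumors. Alternatives were DESeq2 1.42.0, limma 3.58.1 (voom, or log2(TPM + 1) and log2(TPM + 0.1)), other filters and scaling, a replicate block, a fit over 17 tumors and leaving out tumors. The fits were tested on simulated data with 200 changed genes.

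Named genes were Uba1, those past the adjusted threshold, the 10 largest differences in each direction without overlap (mean log2 CPM of at least 1, unadjusted p under 0.05), all keratin and MHC class II members, up to 3 genes per direction and 3 of the highest level from each other list, and a few interferon genes. Other list members named were chosen after their values were seen. Members and lists (38 lists) were chosen with earlier results of these data known. The tumor labels gave the groups, and the difference from the sgUba1 effect was an interaction term. Promoter sequences are from RefSeq (GRCm38.p6). Most classical MHC heavy chain genes are not analysed here, and some other genes that met the rule are not reported here.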

Additional observations from a re-analysis of the deposited data

Results flagged for a closer look

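For 46 named genes and the summed level of 38 lists, each group of 4 OE tumors was searched for a tumor far from the other 3 by Dixon's test at its 95% critical value. About 1 in 20 groups of normally distributed values pass it by chance. Here CPM was used without a log, and some genes had been named for their large differences, so that rate does not carry over. Of 84 values checked, 10 passed. In OE T1, Krt15 stood at 1146 CPM against 239.97 to 381 in the other OE tumors, and Krt13 at 32.3 CPM against 2.68 to 7.02. The same tumor was high for Cdsn (98.2 CPM, others 20.1 to 30.5), Cck (70.4 CPM, others 5.22 to 8.29), Pax2 (19.8 CPM, others 4.16 to 5.46), Fat2 (16.3 CPM, others 2.36 to 3.90) and Rfxap (26.9 CPM, others 17.2 to 18.7), and low for Marchf1 (1.98 CPM, others 4.65 to 5.14). In OE T3 the macrophage genes summed to 1942 CPM against 1276 to 1384 in the other OE tumors, and the monocyte genes to 8169 CPM against 4845 to 5356. Fn1 alone gave 7856 CPM of that monocyte sum in OE T3. Cultured Myc-CaP cells without stimulation also expressed Fn1, at 377 to 469 TPM, so that sum is no measure of monocytes. They also expressed genes of the macrophage list, such as Gpnmb (30.0 to 34.2 TPM) and Spp1 (285 to 307 TPM). The macrophage sum is therefore no measure of macrophages.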

How the results depend on the processing

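The count of 4 genes at an adjusted p under 0.05 became 706 with DESeq2, 2 with limma-voom, 33 without a filter on low counts, 1 with log2(TPM + 1), 1 with log2(TPM + 0.1), and 0 in the fit over 17 tumors (2096 at an unadjusted p under 0.05). With 1 tumor left out it ranged from 0 to 386, the 386 without OE T1, and it was 16 without OE T1 and T2, a fit chosen after the data were seen. The 2698 genes at an unadjusted p under 0.05 ranged from 1683 to 3182 with 1 tumor left out. Same-numbered EV and OE tumors did not deviate together (correlations −0.0209, −0.00581 and 0.0856), and with the replicate block 0 genes passed the adjusted threshold (2731 at an unadjusted p under 0.05). The difference from the sgUba1 effect passed for 707 genes with the replicate block and for 753 to 2067 with 1 tumor left out, against 1698. Uba1, Krt19, Krt78 and Cd74 kept their direction under all 17 alternatives but lost the adjusted call in 4, 9, 10 and 9 of them. Medians of gene lists moved beyond the spread of the tumors as follows: basal and stress keratins to 1.44 without a filter, neutrophil genes to −0.25 with at least 10 counts in every library and 0.027 with log2(TPM + 0.1), and mesenchymal genes to 0.29 with log2(TPM + 1). The mast cell and basophil median was −0.83 in the fit over 17 tumors and 0.60 without OE T1 and T2. Without those tumors the medians were 0.26 for junction, 0.059 for androgen, 0.21 for G2/M, 0.13 for macrophage and −0.32 for dendritic genes, and those of the lower lists were nearer to 0: −0.90 for IFN-γ effectors (from −1.42), −0.38 for type I interferon genes (from −0.82), −0.66 for T and NK cell genes (from −1.23), −0.089 for class I genes (from −0.27) and −0.048 for shared leukocyte genes (from −0.37). With 1 tumor left out, medians ranged from −0.19 to 0.64 for neutrophil, −0.23 to 0.26 for monocyte and −0.10 to 0.037 for cyclin D, CDK and inhibitor genes. The cause of these shifts was not tested. Depth limits lymphocyte and neutrophil genes, most of which had too few counts to test.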

Other observations

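Genes of the endoplasmic reticulum and amino acid stress responses were divided. Of 20 tested, 4 were higher in OE tumors at an unadjusted p under 0.05 (Chac1, Sesn2, Trib3 and Hspa1a) and 5 were lower (Ddit3, Herpud1, Hsp90b1, Hspa5 and Sdf2l1), with 0 past the adjusted threshold in edgeR's test. Trib3, a pseudokinase induced by amino acid stress, was at 7.11, 4.08 and 4.66 CPM in EV and 20.3, 6.63, 15.7 and 6.75 CPM in OE tumors (log2 fold change 1.23, unadjusted p = 0.0243). Hspa5, the chaperone BiP, was at 1089, 1113 and 1039 against 767, 890.4, 1006 and 966 CPM (log2 fold change −0.25, unadjusted p = 0.0345). Of 13 hypoxia genes, Car9 (1.07) and Pgk1 (0.69) were higher and 0 were lower. Of 15 immediate early genes, Fosl1 (2.96) and Ier2 (0.32) were higher and Nr4a1 (−0.41) lower.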
